A study of Mus musculus with 3 samples.

Results

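Mitochondrial ribosomal protein genes encode, in the nucleus, the proteins of the ribosome that works inside mitochondria. The genes were taken by symbol, Mrpl for the large subunit and Mrps for the small subunit, each followed by a number and at most 1 letter. This rule found 78 of the 49492 entries listed, 49 Mrpl and 29 Mrps, and all 78 were above the minimum level used, 1 CPM (counts scaled to 1000000 per library) in at least 1 library.

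Liver RNA from CD-1 mice, an outbred strain, was sequenced in 3 libraries, 1 per group. The 12-week library came from mice given zinc oxide nanoparticles by mouth at 25 mg per kg of body weight a day for 12 weeks, and the 8-week library from mice given the same daily dose for 8 weeks. The particles were sonicated for 30 min. The control library came from mice given the same volume of phosphate-buffered saline. The labels give neither the sex and age of the mice, nor how many animals each library holds, nor when the control livers were taken. The labels name no batch. Libraries held 13263211 counts at 12 weeks and 14258770 at 8 weeks, against 13614979 in the control. The 8-week library stood apart by skeletal muscle markers, which summed to 226 CPM there, 2.19 CPM in the 12-week library and 2.43 CPM in the control library. With 1 library per group no difference has a replicate check, so no p-value is given, and exposure, animal and library cannot be told apart.

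The mitochondrial ribosome translates the few messenger RNAs of the mitochondrial genome, which encode core subunits of the respiratory chain and of ATP synthase. Its ribosomal RNAs come from the mitochondrial genome, while its proteins are made in the cytosol and imported. Many of these proteins descend from bacterial ribosomal proteins, and the others are specific to mitochondria. Liver is rich in mitochondria, and in mammals the factors NRF1, GABPA and YY1 are known to bind promoters of many nuclear genes for mitochondrial proteins.

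Promoter windows are shown for the members at the ends of each subunit's range at 12 weeks, and for Mrps11, which starts beside Mrpl46 on the opposite strand. RefSeq windows on GRCm38.p6 run from 250 bases before to 50 bases after a start and are printed 5′ to 3′ on the gene's strand. Capitals mark matches, on either strand, to the NRF1 motif (the capitals in Mrpl14, with any base at the sixth position), CCGGAAG (the motif of ETS factors such as GABPA) or AAGATGGC (the YY1 motif). The windows are chr17:45686099-45686398 (plus strand) for Mrpl14, which had the lowest large-subunit ratio to the control, and chr14:57825989-57826288 (plus strand) for Mrpl57, which had the highest. Those of the small subunit are chr1:42850983-42851282 (plus strand) for Mrps9, with the lowest ratio, and chr17:46110754-46111053 (plus strand) for Mrps18a, with the highest. The Mrps11 window is chr7:78782881-78783180 (plus strand).
Mrpl14: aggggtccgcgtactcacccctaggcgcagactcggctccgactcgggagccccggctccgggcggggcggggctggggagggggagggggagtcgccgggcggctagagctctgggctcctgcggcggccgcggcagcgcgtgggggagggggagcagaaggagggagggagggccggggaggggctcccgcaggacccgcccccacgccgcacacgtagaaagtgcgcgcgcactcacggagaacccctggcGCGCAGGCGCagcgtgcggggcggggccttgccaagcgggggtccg
Mrpl57: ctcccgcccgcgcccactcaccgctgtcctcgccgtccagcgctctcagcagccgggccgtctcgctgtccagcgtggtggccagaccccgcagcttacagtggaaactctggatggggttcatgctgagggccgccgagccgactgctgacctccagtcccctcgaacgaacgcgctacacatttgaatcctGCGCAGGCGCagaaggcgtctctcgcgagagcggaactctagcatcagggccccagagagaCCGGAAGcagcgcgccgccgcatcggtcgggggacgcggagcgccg
Mrps9: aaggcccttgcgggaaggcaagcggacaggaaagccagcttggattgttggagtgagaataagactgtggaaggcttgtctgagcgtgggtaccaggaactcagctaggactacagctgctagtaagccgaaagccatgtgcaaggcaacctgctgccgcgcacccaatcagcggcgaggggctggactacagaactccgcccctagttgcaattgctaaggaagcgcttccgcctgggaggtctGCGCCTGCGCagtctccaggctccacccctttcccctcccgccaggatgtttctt
Mrps18a: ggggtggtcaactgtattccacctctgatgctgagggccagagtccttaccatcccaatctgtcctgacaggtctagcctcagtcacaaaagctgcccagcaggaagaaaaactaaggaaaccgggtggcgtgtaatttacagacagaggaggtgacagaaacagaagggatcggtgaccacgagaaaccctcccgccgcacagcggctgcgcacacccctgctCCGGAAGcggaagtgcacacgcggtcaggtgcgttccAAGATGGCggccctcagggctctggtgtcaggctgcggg
Mrps11: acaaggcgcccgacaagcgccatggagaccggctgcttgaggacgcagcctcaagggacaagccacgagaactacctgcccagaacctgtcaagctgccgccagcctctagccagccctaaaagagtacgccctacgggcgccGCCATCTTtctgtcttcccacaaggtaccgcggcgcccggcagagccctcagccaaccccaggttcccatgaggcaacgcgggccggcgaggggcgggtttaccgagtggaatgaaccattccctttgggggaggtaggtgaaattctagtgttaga

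Both Mrpl14 and Mrpl57, at opposite ends of the large-subunit range, hold the NRF1 motif. Windows were found for 69 of the 78 members, 75 windows in all. The ETS motif was in 34.7% of the members' windows and in 16.3% of the 12817 windows of other tested genes. For the NRF1 motif the shares were 17.3% of the members' windows and 9.37% of the others, and for the YY1 motif 16.0% and 4.10%. At least 1 of the 3 motifs was in 57.3% of the members' windows, against 26.5% of those of other tested genes and 14.7% of all 32851 windows in the table. The NRF1 motif was in 10 of 48 Mrpl windows and 3 of 27 Mrps windows, the ETS motif in 15 and 11, and the YY1 motif in 6 and 6. A match is a run of letters and not a measured binding site.

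Levels were compared between genes per kilobase of exonic length. Among Mrpl genes they had a median of 8.51 CPM per kilobase in the 12-week library, 9.81 in the 8-week library and 9.30 in the control library. Among Mrps genes the medians were 6.17, 7.09 and 6.90 CPM per kilobase in the same order. The highest mean levels over the 3 libraries were those of Mrpl52 (71.8 CPM per kilobase), Mrpl18 (58.5) and Mrpl12 (41.6). Mrpl52 and Mrpl18 belong to the central protuberance of the large subunit, and Mrpl12 forms the stalk where translation factors bind. Of the small subunit, Mrps24 (20.5 CPM per kilobase), Mrps7 (15.3) and Mrps21 (15.2) were highest. The lowest were Mrpl23 (1.36), Mrpl33 (1.84) and Mrpl19 (1.90) in the large subunit, and Mrps11 (1.38), Mrps36 (2.05) and Mrps35 (2.26) in the small one. Mrps36 is named for the small subunit but is known, from yeast and human, as a part of the 2-oxoglutarate dehydrogenase complex.

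This order depended on the length used. A second length, the longest principal protein-coding transcript in GENCODE M21, was compared over the 65 members whose start and end are the same there. For 11 of the other members that transcript is longer than the exonic length in the files, so the gene models differ, and all 13 others were left out of this order. The highest Mrpl genes were again Mrpl52, Mrpl18 and Mrpl12, at 190.5, 67.0 and 48.4 CPM per kilobase. The lowest were Mrpl19 (2.07), Mrpl35 (3.21) and Mrpl17 (3.503), while Mrpl33 stood at 28.2 and Mrpl23 at 9.62. These levels still use the counts over all exonic bases. Exonic and principal lengths are 7326 and 478 bases for Mrpl33, and 4883 and 692 bases for Mrpl23. In the small subunit the highest were Mrps24 (30.3), Mrps34 (24.8) and Mrps15 (24.5), and the lowest Mrps11 (2.84), Mrps36 (3.73) and Mrps26 (4.63).

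**Figure D1:**
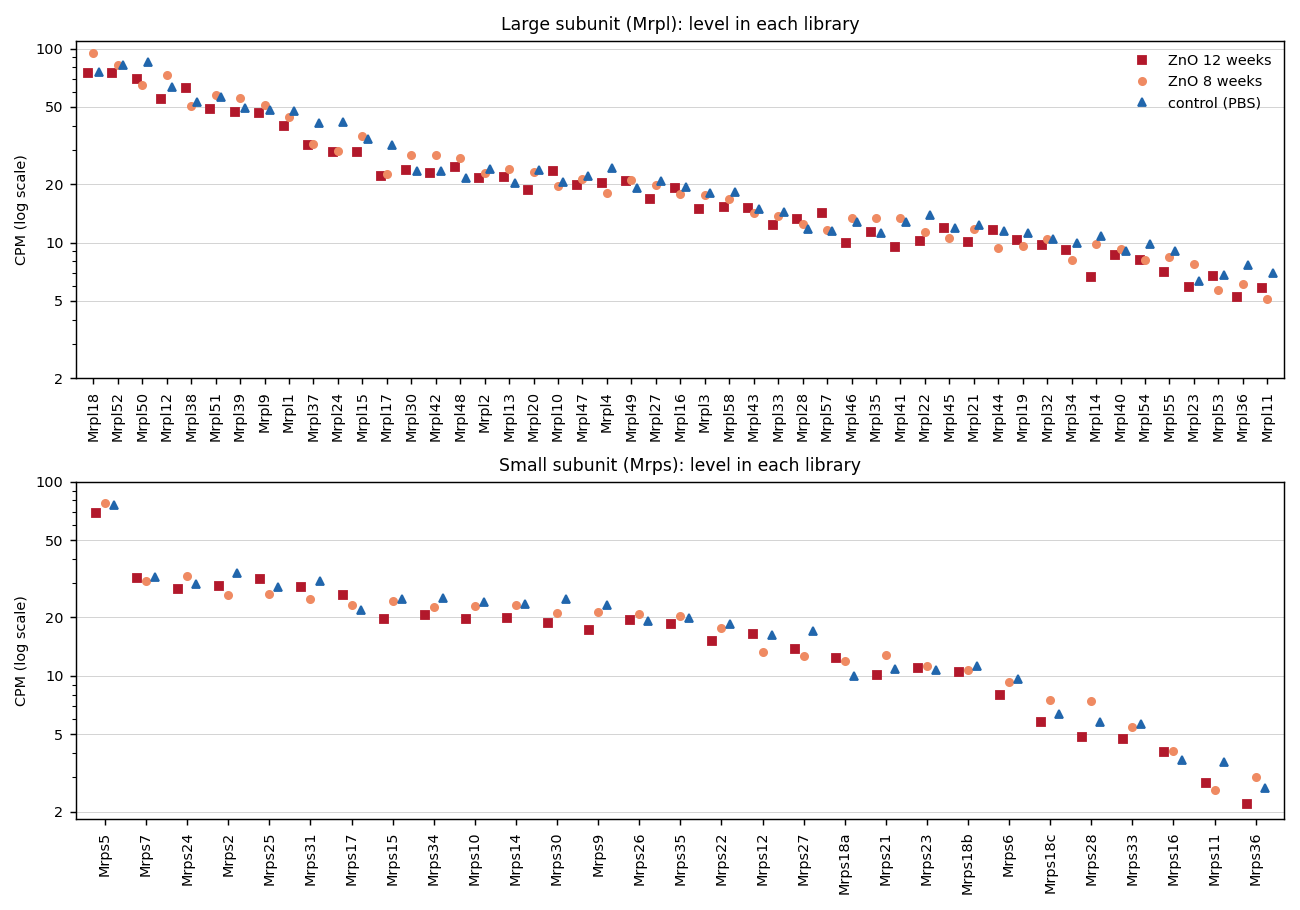
Level of each member in CPM, not divided by length, on a log axis, in the 12-week (square), 8-week (circle) and control (triangle) libraries, Mrpl genes above and Mrps genes below, ordered by mean level. Each point is 1 gene in 1 library, and Mrpl18 reaches 94.8 CPM in the 8-week library while Mrps36 lies at 2.19, 3.001 and 2.65 CPM in the 12-week, 8-week and control libraries.

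After 12 weeks most members were slightly lower than in the control library, in both subunits. The Mrpl genes together had 1127 CPM in the 12-week library, against 1245 CPM in the control library, and the Mrps genes 518 and 570 CPM. The log2 ratio of the summed counts was -0.14 for Mrpl (95% interval -0.18 to -0.11) and -0.14 for Mrps (-0.18 to -0.09). These exact intervals cover counting error only, not the spread between animals. No member passed a 2-fold ratio, and of all 14585 entries tested 3.11% were 2-fold higher and 1.34% 2-fold lower. At 1.5-fold, 1 member was lower, Mrpl14, beside 6.22% of all entries tested, and none was higher, beside 9.28%.

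The log2 ratio to the control, taken after adding 1 CPM, was below 0 for 38 of 49 Mrpl genes, with a median of -0.15, and for 22 of 29 Mrps genes, with a median of -0.14. It was below 0 for 51% of all entries tested, whose median was -0.01. Among the 8319 other entries of the members' range of length and level, 53.9% were below 0 and the median was -0.03. The counting interval lay wholly below 0 for 17 Mrpl and 9 Mrps genes, and wholly above 0 for 1 Mrpl and 1 Mrps gene. Over all entries tested it lay below 0 for 22.4% and above 0 for 21%. Scaling the 12-week and control libraries without the 8-week one left the medians at -0.15 and -0.14. The members spanned -0.62 to 0.27 for Mrpl and -0.42 to 0.27 for Mrps.

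Mrpl14, whose bacterial counterpart sits at the face that joins the subunits, had 6.64 CPM in the 12-week library and 9.77 CPM in the 8-week library, against 10.8 CPM in the control library. These values rest on 88, 140 and 146 counts. Its log2 ratio to the control was -0.62 at 12 weeks (-1.09 to -0.30) and -0.13 at 8 weeks (-0.48 to 0.21), so that the 12-week library alone was low. Mrpl17 had 22.0 CPM in the 12-week library and 22.7 CPM in the 8-week library, against 32.0 CPM in the control library. Its log2 ratio was -0.52 (-0.76 to -0.32) at 12 weeks and -0.48 (-0.71 to -0.29) at 8 weeks. Mrpl24, which in bacteria lies at the exit of the peptide tunnel, had 29.2 and 29.7 CPM in the 12-week and 8-week libraries, against 41.6 CPM in the control library. For both genes the exposed libraries stood close together and the control library was high, and both ratios share that control. Mrpl36 (-0.48) and Mrpl22 (-0.42), where Mrpl22 is a tunnel protein in bacteria, completed the 5 lowest large-subunit ratios at 12 weeks.

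In the small subunit, Mrps9 had 17.2 CPM in the 12-week library and 21.3 CPM in the 8-week library, against 23.3 CPM in the control library. Its log2 ratio at 12 weeks was -0.42 (-0.69 to -0.19), the lowest of the Mrps genes. In bacteria the tail of this protein reaches the transfer RNA in the P site. Mrps30 had 18.7, 21.1 and 24.9 CPM in the 12-week, 8-week and control libraries, with a ratio of -0.39 (-0.65 to -0.17) at 12 weeks. Although named for the small subunit, Mrps30 is found in the large subunit of the assembled ribosome. Mrps15 (-0.34), Mrps34 (-0.29) and Mrps27 (-0.28) came next, and 77.8% of the exonic bases of Mrps34 overlap other entries.

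The highest ratios at 12 weeks were smaller in size. Mrpl57 had 14.1 and 11.6 CPM in the 12-week and 8-week libraries, against 11.5 CPM in the control library, a ratio of 0.27 whose interval spans 0 (-0.02 to 0.61). Mrpl38, a protein of the central protuberance, had 62.7 and 50.7 CPM, against 53.1 CPM in the control library, with a ratio of 0.24 (0.09 to 0.39). Mrpl48, Mrpl10 and Mrpl28 had ratios of 0.18, 0.18 and 0.16, with intervals that span 0. Mrps18a had 12.3 and 11.9 CPM in the 12-week and 8-week libraries, against 10.02 CPM in the control library, and Mrps17 had 26.2 and 23.2 CPM, against 22.0 CPM. Their ratios at 12 weeks were 0.27 (-0.04 to 0.64) and 0.24 (0.03 to 0.48). Mrps25 (0.13), Mrps16 (0.12) and Mrps23 (0.03) followed.

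**Figure D2:**
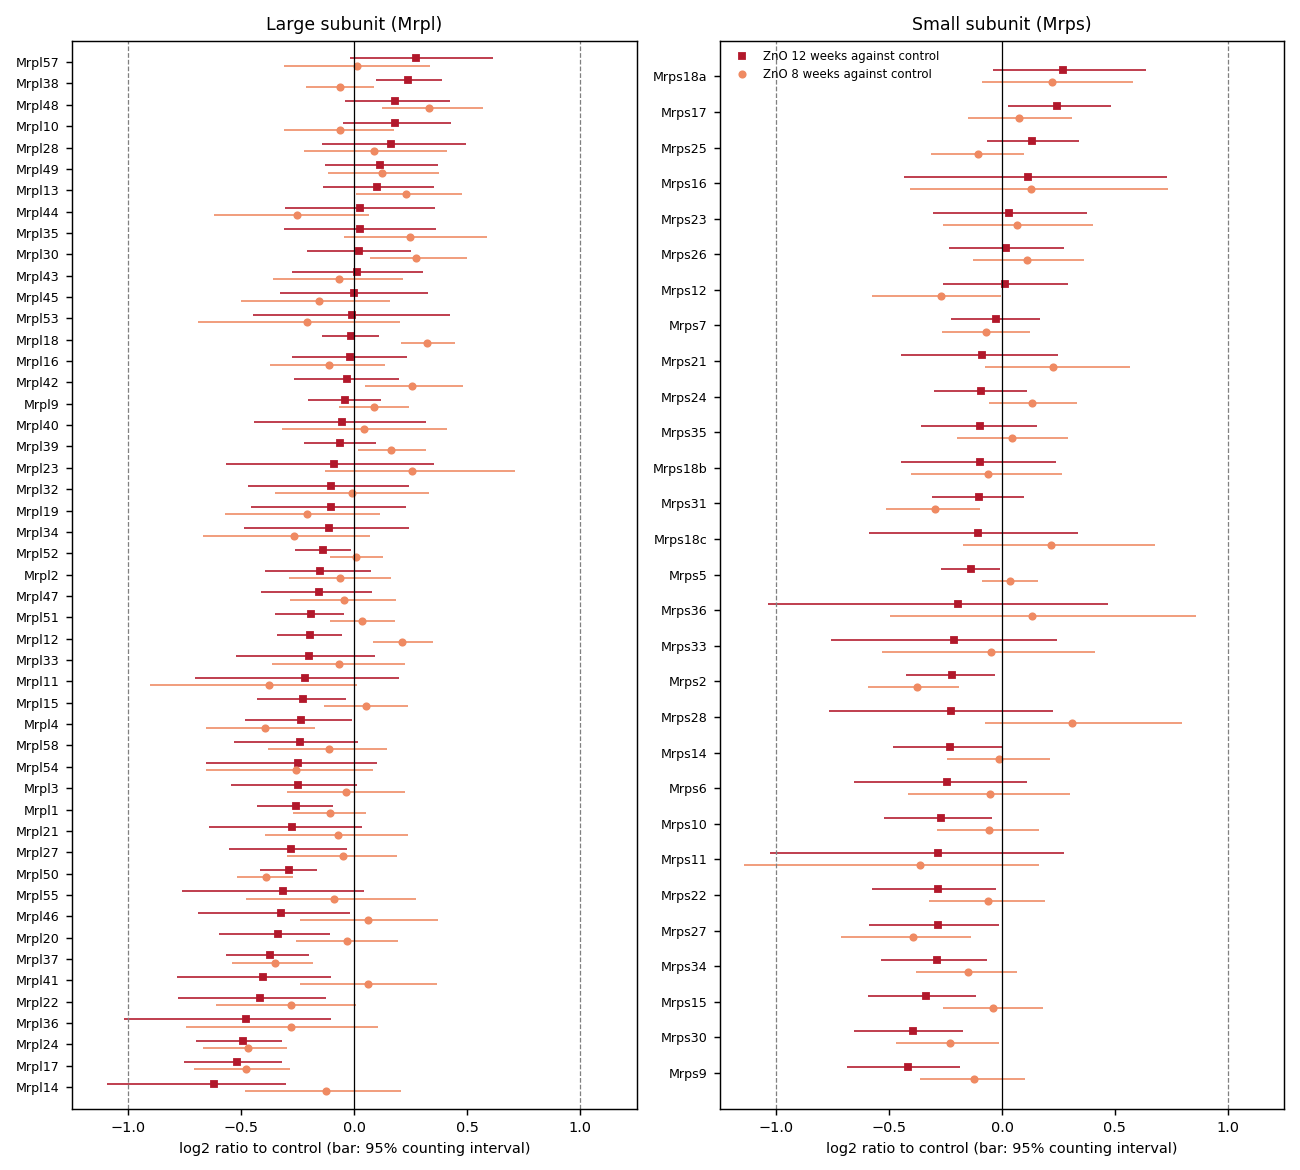
Log2 ratio to the control of each member (points) with its exact 95% counting interval (bars), at 12 weeks (square) and 8 weeks (circle), Mrpl and Mrps genes apart, ordered by the ratio at 12 weeks. Dashed lines mark 2-fold. At 12 weeks 38 of 49 Mrpl and 22 of 29 Mrps ratios lie below 0, and no member reaches 2-fold.

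After 8 weeks the members lay closer to the control library. The Mrpl genes summed to 1224 CPM in the 8-week library, against 1245 CPM in the control library, and the Mrps genes to 548 and 570 CPM. The log2 ratio of the sums was -0.02 for Mrpl (-0.06 to 0.01) and -0.06 for Mrps (-0.10 to -0.01). No member passed 2-fold, beside 4.15% of all entries tested that were 2-fold higher and 2.1% that were 2-fold lower. Ratios below 0 were counted for 30 of 49 Mrpl genes, with a median of -0.06, and for 17 of 29 Mrps genes, with a median of -0.05. Over all entries tested 51.6% were below 0, with a median of -0.02. The counting interval lay below 0 for 5 Mrpl and 5 Mrps genes, beside 24.2% of all entries, and above 0 for 7 Mrpl and 0 Mrps genes, beside 23.6%.

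The lowest large-subunit ratios at 8 weeks, after Mrpl17 and Mrpl24 (-0.47), were those of Mrpl4, Mrpl50 and Mrpl11. Mrpl4, which lines the peptide tunnel in bacteria, had 20.3 and 18.1 CPM in the 12-week and 8-week libraries, against 24.1 CPM in the control library. Mrpl50, a protein specific to mitochondria, had 70.0 and 65.1 CPM, against 85.6 CPM in the control library. Their ratios at 8 weeks were -0.40 (-0.66 to -0.18) and -0.39 (-0.52 to -0.27), so that in both genes the control library was the highest. Mrpl11, at the base of the stalk in bacteria, had a ratio of -0.38 (-0.90 to 0.01) on 73 counts in the 8-week library. In the small subunit Mrps27 (-0.40), Mrps2 (-0.38), Mrps11 (-0.36), Mrps31 (-0.30) and Mrps12 (-0.27) were lowest. Mrps2 had 29.1 and 26.0 CPM in the 12-week and 8-week libraries, against 34.0 CPM in the control library. Mrps12, a protein of the decoding centre, had 16.4 and 13.3 CPM, against 16.2 CPM, so that the 8-week library alone was low.

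The highest large-subunit ratios at 8 weeks were those of Mrpl48 (0.33), Mrpl18 (0.32), Mrpl30 (0.27), Mrpl23 (0.25) and Mrpl42 (0.25). Mrpl18 had 74.7 CPM in the 12-week library and 94.8 CPM in the 8-week library, against 75.6 CPM in the control library. Its interval at 8 weeks was 0.21 to 0.44, and the 8-week library alone was high. Mrpl48 had 24.5 and 27.2 CPM in the 12-week and 8-week libraries, against 21.4 CPM in the control library. Mrps28, Mrps21, Mrps18a, Mrps18c and Mrps24 had the highest small-subunit ratios, from 0.31 to 0.13, and the interval of each spans 0. The paralogs Mrps18a, Mrps18b and Mrps18c, of which Mrps18a is found in the large subunit of the assembled ribosome, had ratios of 0.22, -0.06 and 0.22 at 8 weeks and 0.27, -0.10 and -0.11 at 12 weeks, with intervals that span 0.

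Set against the 8-week library directly, the 12-week library was lower for 34 of 49 Mrpl genes, with a median log2 ratio of -0.13, and for 20 of 29 Mrps genes, with a median of -0.14. Over all entries tested 50.1% were lower. The counting interval lay below 0 for 12 Mrpl and 6 Mrps genes, beside 19.2% of all entries, and above 0 for 2 Mrpl and 2 Mrps genes, beside 19%. No member passed 2-fold, beside 1.28% of all entries higher and 1.23% lower. Mrps28 had 4.83 CPM in the 12-week library, against 7.47 CPM in the 8-week library, a ratio of -0.54 (-1.10 to -0.17) on 64 and 107 counts. Mrpl41, named after its values were seen, had 9.44 CPM in the 12-week library, against 13.4 CPM in the 8-week library, a ratio of -0.46 (-0.84 to -0.17). Mrpl12 had 54.9 and 73.2 CPM, a ratio of -0.41 (-0.55 to -0.28). Mrpl38 went the other way, with 62.7 CPM in the 12-week library, against 50.7 CPM in the 8-week library, a ratio of 0.30 (0.16 to 0.45).

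**Figure D3:**
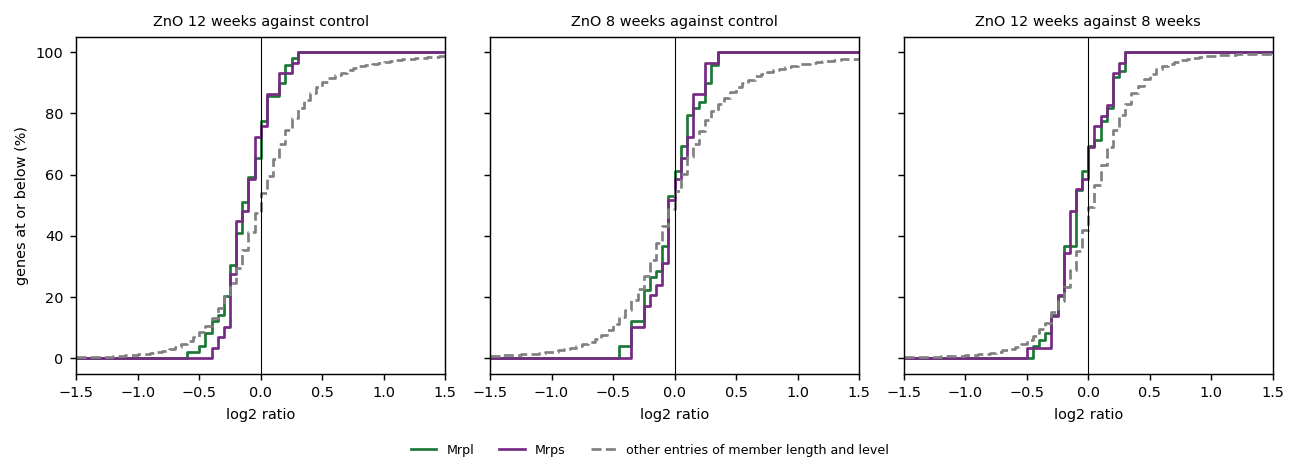
Share of genes (%) at or below each log2 ratio, for Mrpl genes, Mrps genes and the 8319 other entries of the members' range of length and level (dashed), in each comparison. At 12 weeks against control the medians are -0.15 for Mrpl, -0.14 for Mrps and -0.03 for the other entries, and at 8 weeks -0.06, -0.05 and -0.04.

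Members with a bacterial counterpart and members specific to mitochondria were also set apart. At 12 weeks against the control library the medians were -0.20 for the 30 Mrpl genes with a bacterial counterpart and -0.06 for the 19 specific ones. Those of the Mrps genes were -0.18 for 16 genes and -0.10 for 12 genes, with Mrps36 left out. The 12 include Mrps30 and Mrps18a, which are found in the large subunit. Classes follow the family names, so Mrps18a and Mrps18b were classed as specific. Their paralog Mrps18c was classed with a bacterial counterpart. Which Mrps class had the lower median at 12 weeks depends on this classing of the paralogs. At 8 weeks the medians were -0.06 for Mrpl genes with a bacterial counterpart and 0.01 for specific ones. Those of the Mrps genes were -0.03 and -0.06, so the order of the Mrps classes was not the same at both times. Ratios also differed by length of the principal transcript. The 39 with a principal transcript of at most 1302 bases had a median of -0.20 at 12 weeks against the control library, with 34 below 0, and the 39 longer ones -0.10, with 26 below 0. Against the 8-week library the medians were -0.20 and -0.03. Across the 78 members, which share their libraries, Spearman's rho of ratio and length was 0.20 for 12 weeks against control, -0.07 for 8 weeks against control and 0.31 for 12 weeks against 8 weeks. Over the 65 members with the same start and end in both annotations, rho was 0.22, -0.05 and 0.29 in that order.

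By exonic length in the files, the members' medians for 12 weeks against control showed no steady order. They were -0.23 up to 1000 bases (13 members), -0.12 from there to 2000 bases (24), -0.22 to 4000 bases (21) and -0.15 above (20). Other entries at the members' level had -0.06, -0.09, -0.05 and 0.00 in the same classes. For 12 weeks against 8 weeks the members' medians were -0.20, -0.15, 0.04 and -0.14, again without a steady order. Those of the other entries rose with length, at -0.06, -0.04, 0.00 and 0.03. The part of length in the members' ratios was not tested.

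**Figure D4:**
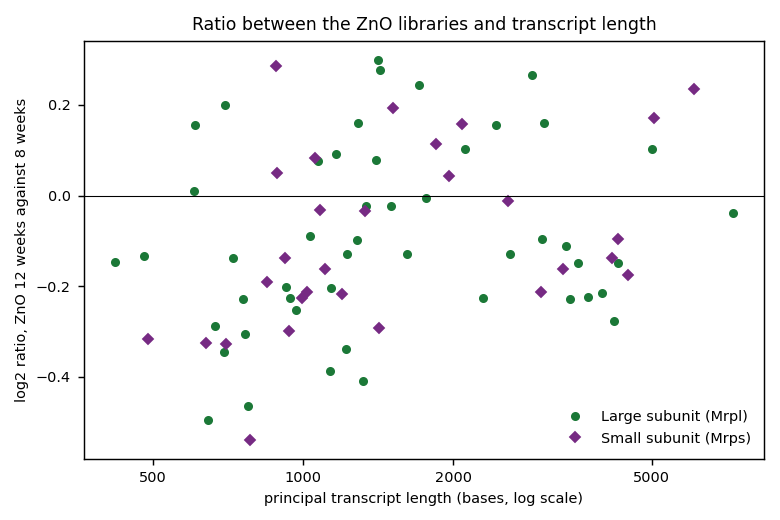
Log2 ratio of the 12-week to the 8-week library for each member against the length of its principal transcript in bases, on a log axis, with Mrpl and Mrps genes marked apart. The 39 shorter members have a median of -0.20 and the 39 longer ones -0.03.

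Members with at least 1 of the 3 promoter motifs, 43 genes, had a median of -0.10 at 12 weeks against the control library, and the 26 without one -0.22. At 8 weeks the medians were -0.05 and -0.05, and for 12 weeks against 8 weeks they were -0.13 and -0.13. The factors named for these motifs were themselves measured. Nrf1 had 10.4 and 8.93 CPM in the 12-week and 8-week libraries, against 12.7 CPM in the control library. Gabpa had 105 and 112 CPM, against 115 CPM, and Yy1 had 55.8 and 55.0 CPM, against 54.7 CPM.

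The members lie on 17 chromosomes, with 11 on chromosome 11 and 8 on chromosome 17. A tested entry on the opposite strand started within 1000 bases of 32 of the 78 members, or 41.0%, against 2178 of 12113 tested protein-coding entries, or 17.98%. Among these pairs Mrps11 and Mrpl46 are both members. Mrps11 had 2.79 and 2.58 CPM in the 12-week and 8-week libraries, against 3.61 CPM in the control library. Mrpl46 had 9.97 and 13.3 CPM, against 12.7 CPM. Their ratios at 8 weeks were -0.36 (-1.14 to 0.16) and 0.06 (-0.24 to 0.37). Mrps12 is paired with Sars2, the mitochondrial seryl-tRNA synthetase, at 4.15 and 4.19 CPM, against 4.79 CPM in the control library. Mrpl43 is paired with Twnk, the mitochondrial DNA helicase, at 42.0 and 35.3 CPM, against 37.4 CPM.

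Exons of 31 members overlap another entry, 26 of them on the opposite strand. Since the use of strand in counting was not given in the sources used here, reads of such pairs cannot be told apart. For Mrpl53, Mrps34 and Mrps25 the overlap was 88.0%, 77.8% and 69.8% of exonic bases. The 47 members that overlap no entry had a median of -0.14 at 12 weeks against the control library, with 36 below 0. Counts were fractional in at least 1 library for 45 members. The pseudogene Mrpl23-ps1 had 29, 30 and 22 counts in the 12-week, 8-week and control libraries, beside 78, 111 and 86 for Mrpl23, so values of Mrpl23 are uncertain.

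Genes that work with the mitochondrial ribosome were described by list. Of all entries tested, 51% were below 0 at 12 weeks and 51.6% at 8 weeks. At 12 weeks 3.11% of them were 2-fold higher and 1.34% 2-fold lower, and at 8 weeks 4.15% and 2.1%. These shares are the background for each list of genes below. Of 13 translation factors, 12 were below 0 at 12 weeks and 12 at 8 weeks, with medians of -0.15 and -0.09, and none passed 2-fold. Among them Mtif2, an initiation factor, had 67.4 CPM in the 12-week library and 67.4 CPM in the 8-week library, against 85.6 CPM in the control library. Taco1, an activator of Cox1 translation, had 15.9 and 19.7 CPM, against 20.9 CPM. Of 21 mitochondrial tRNA synthetases and amidotransferase subunits, 16 and 13 were below 0, with medians of -0.14 and -0.04 and none past 2-fold. Gatc, a subunit of the glutamyl-tRNA amidotransferase, had 73.8 and 103 CPM, against 121 CPM in the control library, and Mars2, the methionyl-tRNA synthetase, 7.47 and 4.68 CPM, against 4.72 CPM.

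Of 25 assembly factors, 19 were below 0 at 12 weeks and 18 at 8 weeks, with medians of -0.11 and -0.14 and none past 2-fold. Ddx28, a helicase of large-subunit assembly, had 12.3 and 9.003 CPM in the 12-week and 8-week libraries, against 17.0 CPM in the control library. Mettl15, a methyltransferase of the small-subunit rRNA, had 1.81 and 2.44 CPM, against 1.11 CPM. The 6 ribosomal proteins and associated genes with other symbols had medians of -0.06 and 0.08, and Dap3, a small-subunit protein, had 27.1 and 28.1 CPM, against 22.7 CPM.

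Counts of the mitochondrial ribosomal RNAs were higher in both exposed libraries, without passing 2-fold. The 2 together had 1563 and 1569 CPM in the 12-week and 8-week libraries, against 1147 CPM in the control library. The part of library preparation in these counts was not tested. mt-Rnr1, of the small subunit, had 638 and 653 CPM in the 12-week and 8-week libraries, against 466 CPM in the control library. mt-Rnr2, of the large subunit, had 925 and 916 CPM, against 682 CPM. The 13 mitochondrial messenger RNAs had medians of 0.11 and 0.08, with none past 2-fold, and summed to 98361 and 93546 CPM, against 96153 CPM. Of 18 genes of mitochondrial transcription and RNA handling and their regulators, 11 were below 0 at each time, with medians of -0.08 and -0.06. None passed 2-fold at 12 weeks. At 8 weeks 1 rose past it, beside 4.15% of all entries tested, and 1 fell past it, beside 2.1%. Ppargc1a, a coactivator of mitochondrial biogenesis, had 30.2 and 53.5 CPM, against 15.4 CPM in the control library, and Myc had 8.23 and 3.001 CPM, against 7.22 CPM.

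**Figure D5:**
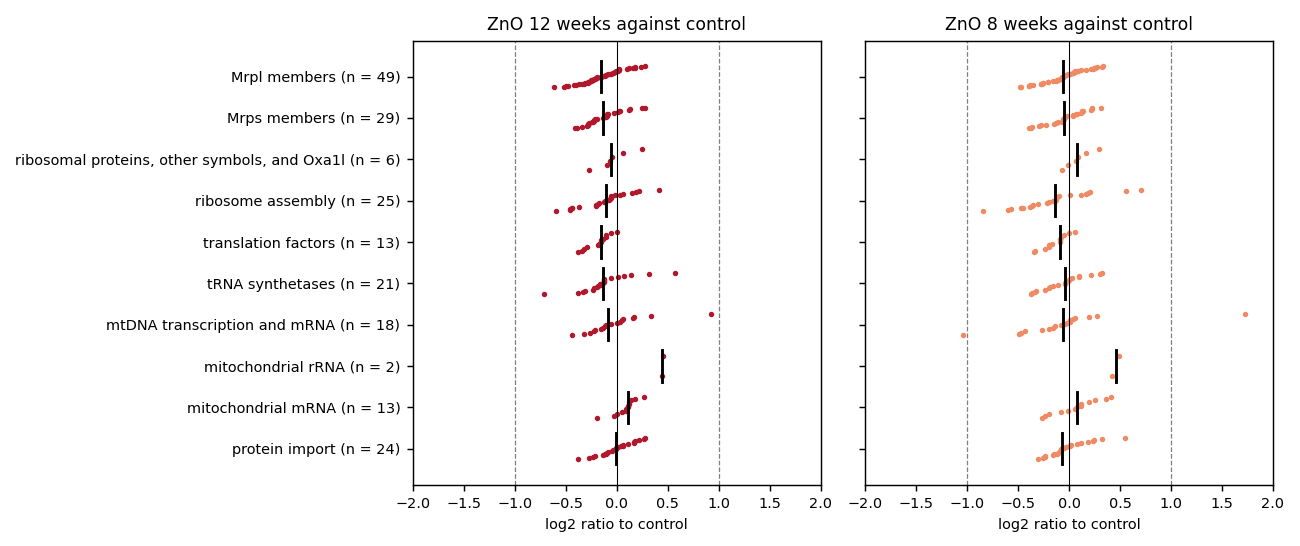
Log2 ratio to the control of single genes (points) and the median of each list (black bar), at 12 weeks and 8 weeks, for the Mrpl and Mrps genes and other gene lists of mitochondrial gene expression and import. Dashed lines mark 2-fold. The translation factors have medians of -0.15 at 12 weeks and -0.09 at 8 weeks, and both ribosomal RNAs lie above 0.

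For cytosolic ribosomal proteins, 76 genes chosen by symbol, the median was -0.27 at 12 weeks and -0.05 at 8 weeks against the control library, with 72 and 54 genes below 0. Other cell types in the liver also differed between libraries. Summed markers of hepatocytes were 75573 and 72913 CPM in the 12-week and 8-week libraries, against 61461 CPM in the control library, with 15 of 15 markers found. Of these, 5 were below 0 at 12 weeks and 6 at 8 weeks, with medians of 0.28 and 0.06. Alb, the gene of serum albumin, had 31169 and 31793 CPM of these sums, against 21847 CPM in the control library. Kupffer cell markers summed to 333 and 433 CPM, against 106 CPM. At 12 and 8 weeks 13 and 14 of the 14 were 2-fold higher, beside 3.11% and 4.15% of all entries tested. Endothelial markers summed to 339 and 378 CPM, against 293 CPM, and stellate cell markers to 329 and 328 CPM, against 260 CPM. Of 12 endothelial markers 2 and 0 were below 0 at 12 and 8 weeks, and of 11 stellate markers tested 0 and 2. Lymphocyte markers summed to 20.3 and 21.01 CPM, against 10.8 CPM, of which Ptprc, a gene of leukocytes in general, had 16.8 and 16.4 CPM, against 6.34 CPM. The 4 of 12 lymphocyte markers tested had medians of -0.04 and 0.21, with 2 below 0 at 12 weeks and 1 at 8 weeks. Neutrophil and monocyte markers summed to 11.7 and 6.63 CPM, against 4.64 CPM, and the 5 of 12 tested had medians of 0.75 and -0.01, with 0 below 0 at 12 weeks and 3 at 8 weeks. At each time 1 endothelial and 1 lymphocyte marker were 2-fold higher. So were 1 stellate marker at 8 weeks and 1 neutrophil and monocyte marker at 12 weeks. Over all entries tested 3.11% were 2-fold higher at 12 weeks and 4.15% at 8 weeks. Erythroid markers summed to 133 and 155 CPM, against 116 CPM, with 1 of 5 tested below 0 at each time. Their medians were 0.55 and 0.55, and the 1 below 0 at 12 weeks was 2-fold lower, beside 1.34% of all entries tested. Of 12 skeletal muscle markers, 5, 0 and 6 were at 0 in the 12-week, 8-week and control libraries. In the 8-week library 11 of 11 tested were 2-fold higher than in the control library, beside 4.15% of all entries tested. In bulk tissue fewer cells of a type and less RNA per cell cannot be told apart, and the part of these cell types in the members' ratios was not tested.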

How the data were processed

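Liver RNA of CD-1 mice was sequenced from TruSeq libraries, per the labels' protocols, with 1 library in each of 3 groups. The deposited values are estimated counts per entry, not normalized, as the headers and their size show, and 70.7% of those above 0 were whole (within 0.005). Per the submitters' processing notes, TopHat2 2.1.0 was used, as was Cufflinks 2.2.1.0. Both mm9 and mm10 are listed there. Which program counted, and whether by strand, was not given in the sources used here. Of the 78 members, 65 had the same start and end in GENCODE M21 (GRCm38), so coordinates are those of mm10.

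Counts were rounded and scaled with TMM factors of 0.999 (12 weeks), 1.00 (8 weeks) and 0.997 (control) from edgeR 4.0.16 in R 4.3.3. Entries with at least 1 CPM in at least 1 library were tested, 14585 of 49492. Log2 ratios were taken after adding 1 CPM, which understates the change of low genes. Members were called at a ratio of 2-fold, by size alone. Counting intervals are exact 95% (Clopper-Pearson) ones for the ratio without the added CPM. They and the floors cover counting error only. No molecular identifiers separate PCR copies, and the intervals take no account of such copies. A count of 0 allows up to 3 counts, or 0.227, 0.209 and 0.221 CPM in the 12-week, 8-week and control libraries. Levels between genes are CPM per kilobase of exonic length.

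The members and gene lists were chosen with earlier results of these data known. The named members are the 5 highest and 5 lowest ratios to the control in each subunit and comparison, the 3 highest and 3 lowest per length (either length), and the Mrps18 paralogs, Mrps30 and Mrps36. Further genes were named after their values were seen. The calculation of ratios and intervals was checked on simulated counts that hold counting error alone, so this does not cover the spread between animals. Alternatives were other scalings (among them DESeq2 1.42.0 size factors), pseudocounts, filters, thresholds and groupings. Scaling without the 8-week library, totals without mitochondrial entries, and principal transcript lengths, also over members with matching ends alone, were chosen after seeing the data. Statistics used Python 3.11.15, numpy 2.4.6, pandas 2.3.3 and scipy 1.17.1.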

Additional observations from a re-analysis of the deposited data

Results flagged for a closer look

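Mrpl12, the stalk protein, was the only member whose counting interval lay away from 0 at both times and on opposite sides. Its log2 ratio to the control was -0.20 (-0.34 to -0.05) at 12 weeks and 0.21 (0.08 to 0.35) at 8 weeks, on 727, 1049 and 855 counts in the 12-week, 8-week and control libraries. With 1 library per group the difference between the times was not tested.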

How the results depend on the processing

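No paired analysis was possible because each group has 1 library, and for the same reason no replicate could be left out. Over 14 alternatives, 232 values of the subunit medians, sums and counts stayed within their limits and 8 moved. Among the 232 are values that a setting could not change. The limit for medians and sums came from the counting interval of the summed counts, which is not a spread of the median. With totals that leave out the 100 most abundant entries, the Mrpl median at 12 weeks against control was -0.12 and the Mrpl summed ratio -0.11. This scaling also moved the median of all entries tested, from -0.01 to 0.02. With 5 CPM added, the Mrps median at 12 weeks was -0.0913. At 1.5-fold, 1 Mrpl gene was called at 12 weeks, Mrpl14. Without members that overlap another entry, the Mrpl summed ratio was -0.0895 at 8 weeks against control and -0.0640 for 12 against 8 weeks, the Mrpl median for 12 against 8 weeks was -0.10, and the Mrps median at 8 weeks was 0.0101, on the other side of 0. The cause of these shifts was not tested. The Mrpl summed ratio at 8 weeks also crossed 0, to 7.371e-04, without the 100 most abundant entries. Of 1700 values of the 44 named members, 2 changed sign, neither larger than 0.03 in the main values. The direction at 12 weeks against control held for both medians and both sums under all 14 alternatives. Some of these could not change it. The fold threshold and the absence of a filter leave the members' medians and sums as they were, and the pseudocount does not enter the sums. Members had 29 to 1358 counts, so single ratios of low members have wide intervals.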

Other observations

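Of 14 mitochondrial chaperones and proteases, 1 fell past 2-fold at 8 weeks against the control library, beside 2.1% of all entries tested. Clpx, the unfoldase of the matrix protease ClpXP, had 203 CPM in the 12-week library and 90.3 CPM in the 8-week library, against 400.3 CPM in the control library. Its log2 ratios were -0.98 at 12 weeks and -2.14 at 8 weeks. Clpp, the protease subunit, had 16.6 and 14.9 CPM, against 23.1 CPM in the control library. The list had medians of -0.12 and -0.11. Of 24 genes of mitochondrial protein import none passed 2-fold, and the medians were -0.01 and -0.06. Over all entries tested, 3.11% were 2-fold higher and 1.34% 2-fold lower at 12 weeks, and 4.15% and 2.1% at 8 weeks.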
